A study of Mus musculus with 8 samples.

Results

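The mouse miRNA families miR-297, miR-466, miR-467 and miR-669 were described across sorted thymic cells. Their members were the probes of the deposited mouse table whose names carry these family numbers, with the opposite (star) strands left out, which gave 57 of 1040 mouse probes: 4 of the miR-297 family, 25 of miR-466, 8 of miR-467 and 20 of miR-669. RNA was hybridized to 8 single-color arrays, 3 of CD45+ cells, 2 of cortical thymic epithelial cells (cTECs) and 3 of medullary thymic epithelial cells (mTECs). All animals were NOD wildtype females of 4 weeks of age, no group was treated, and each replicate was RNA from pooled thymi, 10 to 12 animals per isolation. The sort took CD45+ cells as the hematopoietic reference, and both epithelial groups as CD45-, EpCAM+ and MHC II+ cells that were Ly51+ (cTEC) or Ly51- (mTEC). An array value is therefore a mean over a sorted pool, in which fewer cells of a type and less RNA per cell cannot be told apart.

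miRNAs are short RNAs that a nuclease cuts from a hairpin transcript, and that lower the output of messenger RNAs whose sites pair with the seed, the stretch near the 5′ end of the miRNA. Most genes of these families lie as a tandem array within an intron of Sfmbt2, which encodes a Polycomb group protein, in rodents. Sfmbt2 is imprinted in mouse extraembryonic tissue, and the families were expanded by duplication, so that many members differ by few bases and several genes give the same mature miRNA. In the RefSeq annotation of GRCm38.p6, Sfmbt2 spanned chr2:10370440-10595253. Of 81 annotated miRNA genes of these families, 71 lay inside it, in a stretch of 51617 bp at chr2:10466663-10518279. By gene symbol, all genes matched to the member lay inside Sfmbt2 for 46 of the 57 members, all lay outside for 8 (miR-466i-5p, miR-466i-3p, miR-466j, miR-466k, miR-467f, miR-467g, miR-467h and miR-669n), and 3 had genes in both places (miR-466f, miR-466f-3p and miR-466f-5p).

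The sequences were read from the deposited probes, as the complement of the probe without its linker, and are given 5′ to 3′ in DNA letters with the seed (bases 2 to 8) in capitals. They equalled the RefSeq mature sequence for all 7 members that the RefSeq table holds, and for 275 of the 279 mouse probes it holds. The 10 members with the highest mean signal over the 8 arrays are shown, because the results turn on them.
miR-466i-5p: tGTGTGTGtgtgtgtgtgtg
miR-669c: aTAGTTGTgtgtggatgtgtgt
miR-669a-3p: aCATAACAtacacacacacgtat
miR-466c-5p: tGATGTGTgtgtgcatgtacatat
miR-669n: aTTTGTGTgtggatgtgtgt
miR-669a-5p: aGTTGTGTgtgcatgttcatgtct
miR-466h-3p: tACGCACGcacacacacac
miR-467a: tAAGTGCCtgcatgtatatgcg
miR-466a-3p: tATACATAcacgcacacataaga
miR-466b-3p: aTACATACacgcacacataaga
miR-466i-5p was a T and G alternation over its whole length of 20 bases. Across the members 24 held a run of alternating T and G of 7 or more bases, 13 a run of alternating C and A of 7 or more, and 20 neither. The members carried 37 seeds, of which 13 were shared, by 33 members in all. The seed GTTGTGT, for example, was shared by miR-669a-5p, miR-669f-5p and miR-669l, and the seed ATACATA by miR-466a-3p, miR-466d-3p, miR-467g and miR-297b-3p. There were 9 pairs of near-identical members, 7 with 1 substitution and 2 with one sequence inside the other, and signals of such pairs may share RNA.

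Signals are given in scaled intensity units, after division by the array's own 75th percentile over 65 mouse probes that passed the background call everywhere. They order arrays for 1 probe, and they do not order the amounts of different miRNAs. The dividing percentile was 2910 and 1364 for cTECs and 4213 to 11503 for the other 6 arrays. The lowest scaled signal that the scanner software called well above background was 342 and 621 in cTECs and 67.0 to 223 elsewhere, so that a dim member had less chance of being measured in cTECs. The 7 epithelial marker miRNAs summed to 623 to 704 in CD45+ cells, 8620 and 4442 in cTECs and 36800 to 39058 in mTECs, and the 6 blood cell markers to 24259 to 28136, 5103 and 4131, and 3216 to 4619. Of the epithelial markers, 2, 3 and 0 of 7 were well above background in CD45+ cells, 5 and 3 in cTECs, and 7 on each mTEC array. Of the blood markers, 6 of 6 were so on each CD45+ array, 3 on each cTEC array and 4 to 6 on the mTEC arrays. The 6 endothelial and mesenchymal markers summed to 410 to 473 in CD45+ cells, 3257 and 2308 in cTECs and 934 to 1233 in mTECs. The part of other cells in the values below was not tested.

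Most members were dim. Of the 57, 12 (21.1%) were well above background on no array, beside 59.8% of all mouse probes, and 14 were so on 1 array. miR-466i-5p alone was well above background on all 8. In CD45+ cells 10, 20 and 10 members passed (17.5%, 35.1% and 17.5%, beside 18.5%, 22% and 16.3% of all mouse probes). In cTECs 3 and 7 passed (5.26% and 12.3%, beside 11.7% and 9.42%). In mTECs 17, 33 and 34 passed (29.8%, 57.9% and 59.6%, beside 27.5%, 22.7% and 31.3%). The members were thus seen more often than the average mouse probe on CD45+ replicate 2 and on mTEC replicates 2 and 3, and about as often on CD45+ replicates 1 and 3 and on mTEC replicate 1. On every array of a group, 8 members were above background in CD45+ cells, 1 in cTECs and 10 in mTECs (14%, 1.75% and 17.5%, beside 16.1%, 7.6% and 16% of all mouse probes). These counts rest on single arrays. Without mTEC replicate 1 the mTEC count was 22 (38.6%, beside 17.7% of all mouse probes), without mTEC replicate 2 it was 16 (28.1%, beside 24.9%), and with cTEC replicate 1 left out, or cTEC replicate 2, the cTEC count was 7 (12.3%, beside 9.42%) or 3 (5.26%, beside 11.7%). Both mTEC arrays with high counts shared 22 members, which was 66.7% of those on replicate 2 and 64.7% of those on replicate 3, and 10 members were above background on mTEC replicate 2 and no other mTEC array, 8 of them on no other array of any group.

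**Figure D1:**
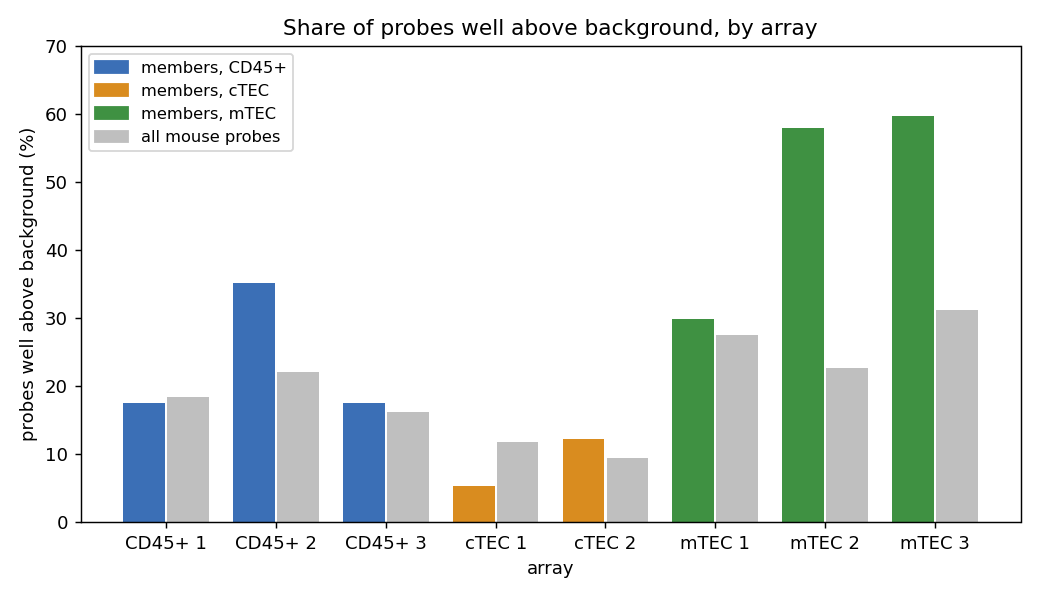
Percent of probes well above background on each array (y axis, from 0) for the 57 family members (colored bars, by group) and all 1040 mouse probes (grey bars). The members reached 57.9% and 59.6% on mTEC replicates 2 and 3, where the grey bars stand at 22.7% and 31.3%.

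mTEC replicate 2 stood apart from both other mTEC arrays in these families, so many of the results below are also given without it. Relative to the mean of the other mTEC arrays, the median member differed by 1.71 on the log2 scale on mTEC replicate 2, and 38 of 57 members (66.7%) were higher by more than 1, beside a median of 0 and 14% over all mouse probes. Before scaling the median difference was 0.79 for the members and -0.16 for all mouse probes. The median scaled signal of the members was 60.3, 392 and 118 in mTECs, 66.7, 67.0 and 78.9 in CD45+ cells, and 169 and 475 in cTECs, where 342 and 621 were the lowest signals well above background. Members with a C and A run passed the background call there most often: 12 of 13 did on mTEC replicate 2, against 1 of 13 on mTEC replicate 1 and 6 of 13 on mTEC replicate 3. Of the 24 with a T and G run, 9, 16 and 18 passed on mTEC replicates 1, 2 and 3, and of the 20 with neither run 7, 5 and 10. The signals of miR-466i-5p ran the other way, with its lowest value on that array.

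**Figure D2:**
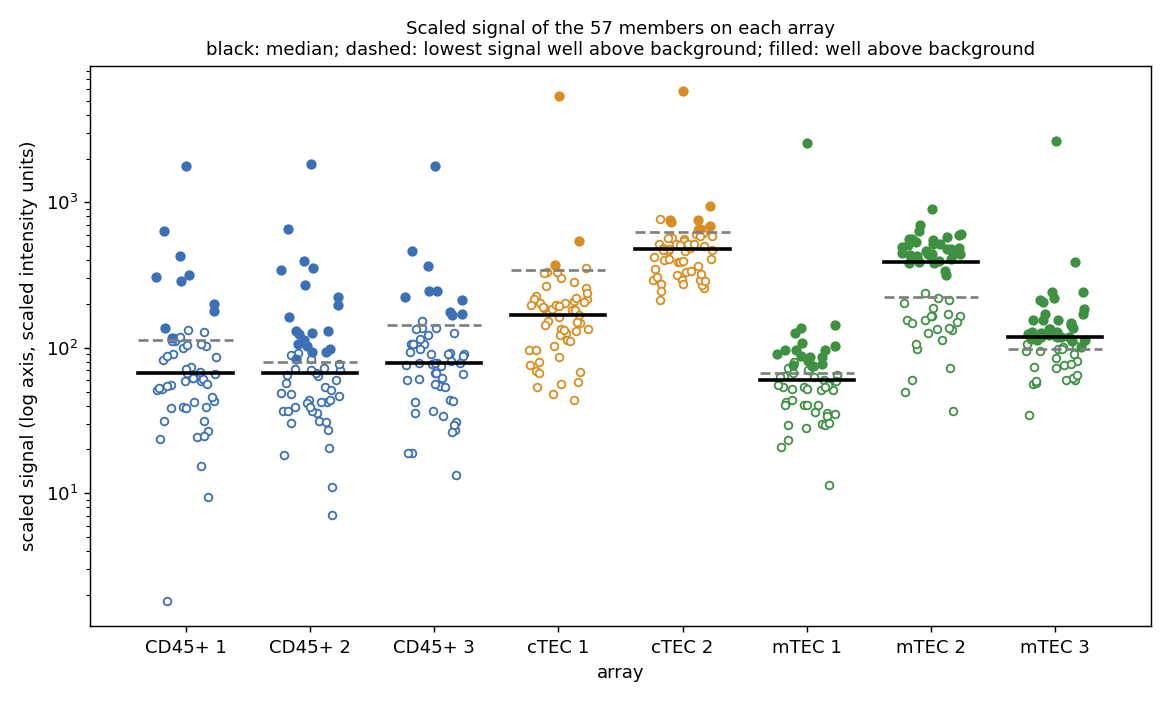
Scaled signal of each of the 57 members (points, log axis, scaled intensity units) on the 8 arrays, filled where well above background, with the median (black bar) and the lowest signal well above background on that array (dashed). The medians of 169 and 475 on the cTEC arrays lie below their dashed lines at 342 and 621, and the median of 392 on mTEC replicate 2 lies above its own at 223. One member with a negative signal on cTEC replicate 1 cannot be drawn on a log axis.

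In the miR-466 family, miR-466i-5p was the member measured best. Its signals were 1767, 1822 and 1765 in CD45+ cells, 5404 and 5815 in cTECs, and 2576, 903 and 2627 in mTECs. Its gene, Mir466i, lay outside Sfmbt2, at chr13:17747473-17747593 of GRCm38.p6. The CD45+ arrays lay within a narrow range, both cTEC arrays were above all 6 others, and the mTEC arrays lay on both sides of the CD45+ ones. Before scaling the order was different: 3236, 3599 and 2544 in CD45+ cells, 2722 and 1373 in cTECs, and 5131, 658 and 2915 in mTECs. Both cTEC arrays were thus above all others only after scaling, and on the unscaled signals cTEC replicate 2 was below every CD45+ array. Unscaled signals are no neutral measure here, since the dividing percentile was 2910 and 1364 in cTECs and 8323 to 11408 in CD45+ cells. The part of the scaling in the difference was not tested.

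Several other miR-466 members were measured in CD45+ cells. miR-466a-3p had signals of 315, 354 and 245 in CD45+ cells, 56.1 and 335 in cTECs, and 87.0, 383 and 156 in mTECs. miR-466b-3p, which lies whole within miR-466a-3p and lacks the base at its 5′ end, had 307, 344 and 224, then 96.2 and 291, then 90.8, 447 and 95.7. Both were above background on every CD45+ array and on mTEC replicates 1 and 2, and neither was well above background on any cTEC array. miR-466c-5p had 201, 224 and 212 in CD45+ cells, 258 and 685 in cTECs, and 103, 488 and 170 in mTECs. It was above background on 7 arrays, the exception being cTEC replicate 1.

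The other named miR-466 members were dimmer in CD45+ cells. miR-466h-3p, which holds a C and A run of 11 of its 19 bases, had signals of 103, 97.9 and 127 in CD45+ cells, 544 and 619 in cTECs, and 35.7, 409 and 392 in mTECs. miR-466g had 99.9, 102 and 90.9, then 374 and 386, then 40.5, 439 and 243. These were the only named members besides miR-466i-5p above background on cTEC replicate 1. miR-466j had 87.4, 89.4 and 135, then 204 and 399, then 73.2, 560 and 114. miR-466f-3p had 59.3, 43.6 and 36.9, then 331 and 292, then 28.2, 433 and 220. miR-466h-5p had 86.6, 70.4 and 90.8, then 135 and 473, then 65.1, 611 and 114. The last 3 were above background on mTEC replicates 2 and 3 only. miR-466i-3p, the partner strand of miR-466i-5p on the same hairpin, had 43.0, 46.3 and 65.9, then 217 and 407, then 34.8, 439 and 185, above background on the same mTEC arrays. The probe for the 5p strand of this hairpin was thus above background on all 8 arrays and that for the 3p strand on 2. These calls come from different probes and do not order the amounts of the strands.

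In the miR-669 family, miR-669a-3p was well measured in CD45+ cells. Its signals were 633, 653 and 463 in CD45+ cells (583 ± 105, SD, n = 3), 69.0 and 212 in cTECs (neither above background), and 96.6, 556 and 156 in mTECs (269 ± 250, SD, n = 3). The CD45+ arrays and mTEC replicate 2 were high, and mTEC replicates 1 and 3 were low. miR-669a-5p, from the other arm of the same hairpins, had 288, 269 and 247 in CD45+ cells, 103 and 392 in cTECs, and 108, 460 and 135 in mTECs. The same arrays were high and low as for miR-669a-3p, apart from cTEC replicate 2, where miR-669a-5p was not above background.

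The other named members of miR-669 all held a T and G run. miR-669c had signals of 180, 198 and 171 in CD45+ cells, 355 and 949 in cTECs, and 143, 595 and 243 in mTECs, above background on all but cTEC replicate 1. miR-669n had 117, 107 and 152, then 331 and 732, then 126, 632 and 205. miR-669m-5p had 107, 93.9 and 177, then 211 and 762, then 86.1, 580 and 148. All of these were above background on every mTEC array, while only miR-669c was so on every CD45+ array. miR-669f-5p had 111, 125 and 106, then 154 and 565, then 96.4, 704 and 170. miR-669l had 90.1, 91.7 and 136, then 266 and 761, then 79.9, 392 and 156. miR-669f-5p too was above background on every mTEC array, and miR-669l on mTEC replicates 2 and 3 and on cTEC replicate 2. miR-669o-5p had 82.0, 64.7 and 107, then 228 and 773, then 63.9, 510 and 129. miR-669d had 111, 83.8 and 115, then 144 and 475, then 67.3, 430 and 126. Within mTECs each of these was highest on replicate 2.

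In the miR-467 family, miR-467a was the clearest in CD45+ cells. Its signals were 428, 396 and 365 in CD45+ cells (396 ± 31.5, SD, n = 3), 48.4 and 314 in cTECs, and 136, 155 and 135 in mTECs (142 ± 11.2, SD, n = 3). All CD45+ arrays were above all mTEC arrays, and this member, unlike most, did not stand out on mTEC replicate 2, where it was not above background. It was not above background on either cTEC array. Its seed, AAGTGCC, was shared with 2 mouse probes outside these families.

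The other miR-467 members were dimmer. miR-467e had signals of 128, 131 and 167 in CD45+ cells, 220 and 651 in cTECs, and 96.1, 215 and 136 in mTECs. miR-467c had 119, 114 and 123, then 185 and 514, then 87.5, 237 and 122. The CD45+ and mTEC ranges of both overlapped. miR-467f had 55.5, 71.6 and 60.9, then 327 and 462, then 52.0, 534 and 214. miR-467h had 59.2, 53.7 and 92.3, then 284 and 654, then 77.1, 318 and 143. Neither of the latter was above background on any CD45+ array, whereas miR-467h was so on all 3 mTEC arrays. By means of log2 signals it was at least 1.38-fold higher in mTECs than the limit of the CD45+ arrays (geometric means 152 and 110), but without mTEC replicate 2 no bound above 1 could be set. It was not called by limma (adjusted p = 0.845 with signals under 223 set to that value). Of the miR-297 family 1 of 4 members was tested, miR-297a, which had 133, 127 and 137 in CD45+ cells, 301 and 515 in cTECs, and 85.0, 516 and 129 in mTECs.

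**Figure D3:**
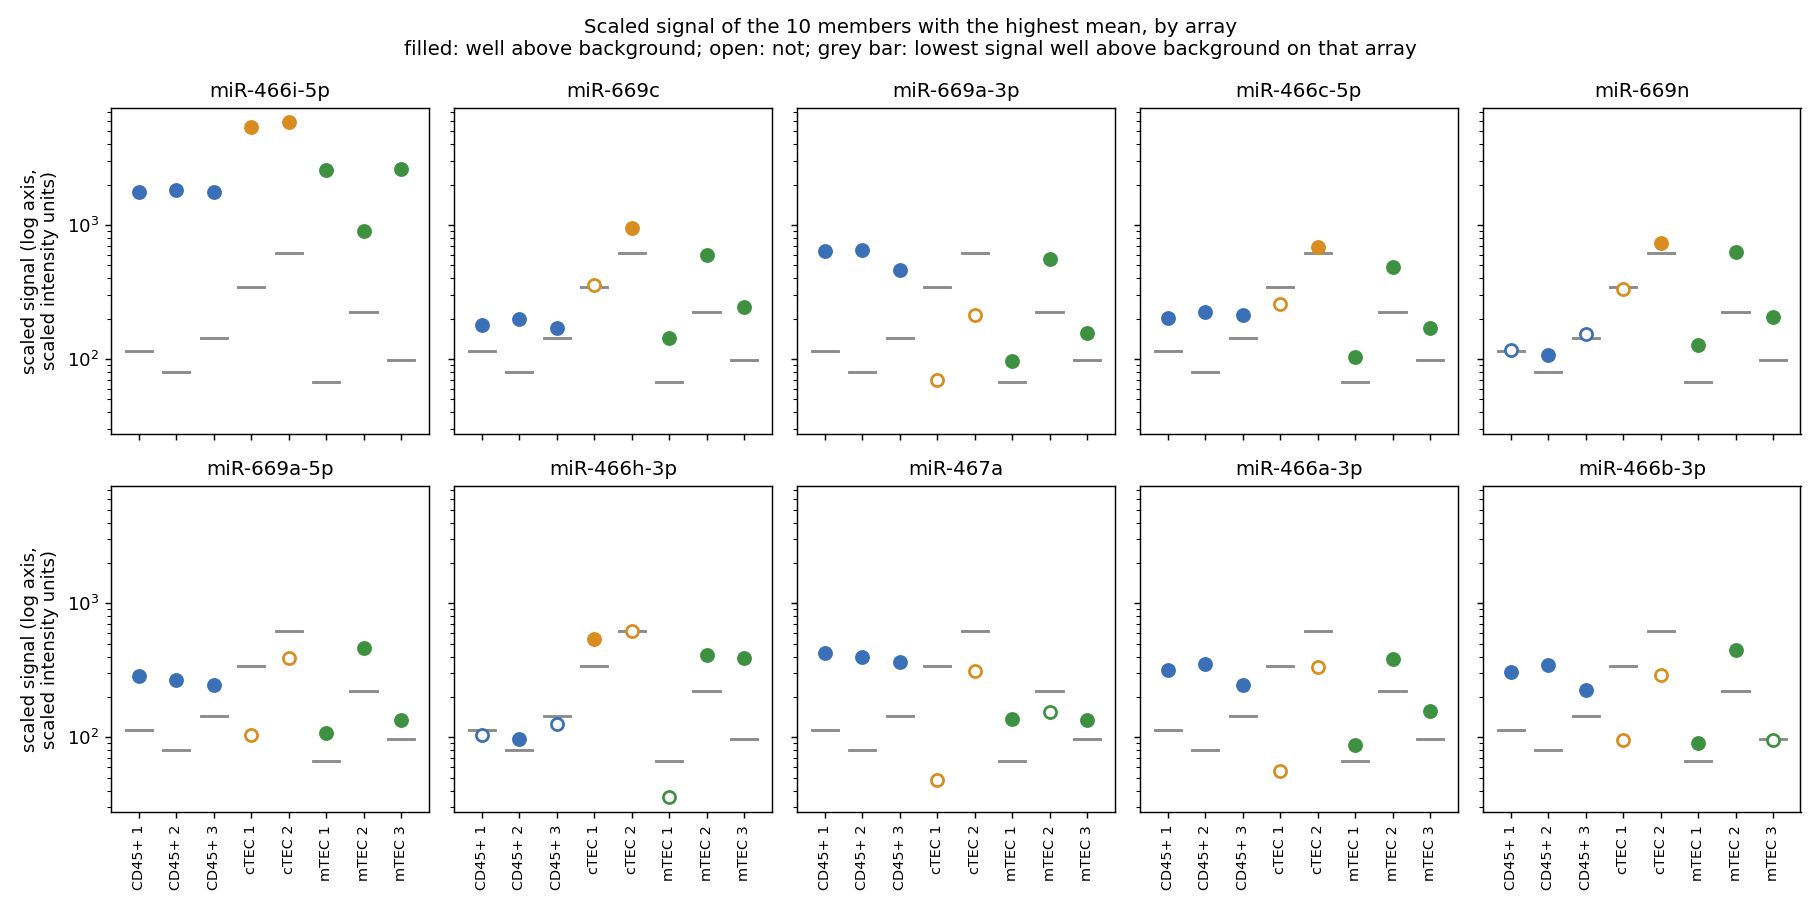
Scaled signal (log axis, scaled intensity units) of the 10 members with the highest mean on the 8 arrays, 1 panel each, filled where well above background and open where not, with the lowest signal well above background on each array as a grey bar. miR-467a and miR-669a-3p show filled points at 365 to 653 on the CD45+ arrays and open points on both cTEC arrays.

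The other 32 members were dimmer by this mean, and 6 of them entered the test: miR-466b-5p, miR-466f, miR-467b, miR-669b, miR-669f-3p and miR-669g. miR-669a-3-3p belongs here, and is shown beside a near-identical member with another call in CD45+ cells. It differs from miR-669a-3p by 1 substitution, T19C counted from the 5′ end, with the miR-669a-3-3p base first.
miR-669a-3-3p: aCATAACAtacacacacatgtat
miR-669a-3p: aCATAACAtacacacacacgtat
miR-669a-3-3p had signals of 31.4, 37.0 and 18.8 in CD45+ cells, where miR-669a-3p had 633, 653 and 463, and 383 on mTEC replicate 2, where miR-669a-3p had 556. miR-669a-3p was above background on every CD45+ array and miR-669a-3-3p on none, whereas both were on mTEC replicate 2. The part of the base in the different calls was not tested.

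The deposited table lists 6 or more positions for 6 members: miR-669a-3p, miR-669a-5p and miR-467a with 9, miR-466b-3p and miR-466b-5p with 8, and miR-297a with 6. Of these, 4 of 6 were above background on every CD45+ array, beside 3 of the 43 members with 1 position and 16.1% of all mouse probes. None of the 6 was above background on a cTEC array, which also held for 48 of all 57 members and 899 of 1040 mouse probes. The other members above background on every CD45+ array were miR-466i-5p, miR-669c and miR-466a-3p with 1 position and miR-466c-5p with 2, whereas miR-466b-5p passed on no CD45+ array and miR-297a on 1. The median signal of the 6 was 298, 306 and 235 in CD45+ cells, 99.8 and 353 in cTECs, and 93.7, 454 and 132 in mTECs. For members with 1 position the median was 61.2, 57 and 78.3, then 185 and 498, then 54.2, 318 and 114. This grouping was made after the values were seen and was given no test. Across the 56 members with a listed position, the Pearson correlation of the log2 number of positions with the log2 signal was 0.35 to 0.42 in CD45+ cells, -0.19 and -0.21 in cTECs and 0.02 to 0.17 in mTECs. Spearman's rho was 0.28 to 0.38 in CD45+ cells, -0.17 and -0.14 in cTECs, and 0.45, 0.18 and 0.15 in mTECs, so that by ranks mTEC replicate 1 was above every CD45+ array. The length of the T and G run correlated with the signal over 57 members at 0.26 to 0.39 in CD45+ cells, 0.52 and 0.76 in cTECs and 0.55, 0.15 and 0.46 in mTECs by Pearson's r, and at 0.10 to 0.27, 0.30 and 0.62, and 0.34, 0.087 and 0.22 by Spearman's rho. The points share arrays and base composition, and miR-466i-5p has by far the longest run, so these are descriptions only.

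A miRNA entered the test when it was well above background on at least 2 arrays, which held for 31 of 57 members (54.4%) and 309 of 1040 mouse probes. One limma model was fitted to all of these, with signals under 621 set to that floor, since no lower signal was above background on cTEC replicate 2. This floor put 29 to 30 of the 31 tested members at 1 value on each array other than cTEC replicate 2 and mTEC replicate 2, and 9 at 1 value on all arrays, so the fit said little about dim members. A lower floor of 223, the highest limit of the CD45+ and mTEC arrays, was therefore fitted beside it.

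For mTEC against CD45+ the question was whether medullary epithelium differs in these miRNAs from the hematopoietic cells of the thymus. None of the 31 members passed by limma with Benjamini-Hochberg adjustment, where 23.9% of the 309 tested miRNAs did, and 0 members had an unadjusted p under 0.05. With the floor at 223, miR-467a was lower in mTECs by 0.80 ± 0.15 (log2 fold change -0.80, SE 0.15, adjusted p = 0.00482), 1 of 31 members where 19.1% of tested miRNAs were called lower. It was also the only member whose mTEC and CD45+ arrays did not overlap at that floor, against 25.6% of tested miRNAs that were lower without overlap. miR-669a-3p had a log2 fold change of -0.93 (SE 0.36, adjusted p = 0.0949) at that floor.

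In the deposited quantile-normalized values 4 members were called lower in mTECs, namely miR-669a-3p, miR-467a, miR-466a-3p and miR-466b-3p, where 26.2% of tested miRNAs were. With mTEC replicate 2 left out and the floor at 144, 3 were called lower, where 17.5% of tested miRNAs were: miR-669a-3p (log2 fold change -1.92, SE 0.26, adjusted p = 0.000937), miR-467a (-1.42, SE 0.30, adjusted p = 0.00902) and miR-466b-3p (-0.98, SE 0.29, adjusted p = 0.0351). In those arrays 7 members were lower in mTECs without overlap, where 32.7% of tested miRNAs were. At the floor of 621 without mTEC replicate 2, miR-466i-5p was instead called higher in mTECs, by 0.54 (adjusted p = 0.000622), where 9.39% of tested miRNAs were. At the floor of 144 the fold change was the same, and it was not called (adjusted p = 0.0523). Its log2 fold change in this comparison was below 0 in 4 of the 24 other settings. miR-467a was not higher in mTECs under any of the 24 other settings and called lower in 8, and miR-669a-3p was lower in all 24 and called in 6. Of these values 15 of miR-467a were 0, with both groups at the floor, and those of miR-669a-3p came as near to 0 as -0.0093, so most of them say little about direction.

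For cTEC against CD45+ the same question was asked of cortical epithelium. 1 member was called, miR-466i-5p, higher in cTECs with a log2 fold change of 1.65 (SE 0.47, adjusted p = 0.0435), or 3.14-fold by group means, where 30.7% of tested miRNAs were called. The call was lost when any CD45+ array, either cTEC array or mTEC replicate 1 was left out, with adjusted p from 0.054 to 0.196. It was also lost with the replicate number as a block (adjusted p = 0.0774), with a block for the row of the slide (0.0639) and when dim probes were not filtered out (0.169). The sign turned on signals without normalization (-0.68) and with the 75th percentile taken over all mouse probes (-0.23). Those scalings also moved the median of all 309 tested miRNAs in this comparison, to -0.43 and -0.12. Without cTEC replicate 1, the array with the lower limit of that pair, 15 other members were called higher, where 35.6% of tested miRNAs were, with the lone cTEC array assumed to vary as the other groups did.

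With the floor at 223, 3 members were called higher in cTECs (miR-466i-5p, miR-466h-3p and miR-467h) and 2 lower (miR-669a-3p and miR-467a), where 24.9% of tested miRNAs were called in each direction. This floor lies under the limits of both cTEC arrays, so these calls rest in part on cTEC signals that were not measured above background. miR-466i-5p was well above background on both cTEC arrays, and miR-466h-3p (log2 fold change 1.36, SE 0.26, adjusted p = 0.00349) on 1 of 2 cTEC arrays and 1 of 3 CD45+ arrays. miR-467h (adjusted p = 0.0422) was so on no array of either group, and no fold is given for it. miR-669a-3p (adjusted p = 0.0371) and miR-467a (adjusted p = 0.0304) were so on every CD45+ array and on no cTEC array. By normexp background correction the sign of miR-467a turned (0.30), and it was not called. Without mTEC replicate 2, and with the floor at 144, 18 members were called higher in cTECs, where 38.8% of tested miRNAs were, and 2 lower, where 25.9% were. At the floor of 223 with all arrays, 22 of 31 members were higher in cTECs without overlap, where 46.3% of tested miRNAs were. Lower without overlap were 2, miR-669a-3p and miR-467a, where 27.5% of tested miRNAs were. Of the 22, miR-466i-5p alone was well above background on both cTEC arrays, so most of these higher cTEC values were signals that the cTEC arrays did not measure above background. On every CD45+ array and on no cTEC array, 5 members were well above background (8.77%, beside 6.54% of all mouse probes): miR-669a-3p, miR-669a-5p, miR-467a, miR-466a-3p and miR-466b-3p. Against the cTEC arrays' own limits, miR-669a-3p was at least 1.25-fold higher in CD45+ cells (measured means 583 and 140), and no bound above 1 could be set for the other 4. In the deposited values 1 member was called higher in cTECs, where 8.41% of tested miRNAs were, and 5 lower, where 36.2% were; the 5 were the same members.

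For mTEC against cTEC, which compares both epithelial groups, 0 members were called, where 22.7% of tested miRNAs were, and 1 had an unadjusted p under 0.05, miR-466i-5p (log2 fold change -1.61, SE 0.47, adjusted p = 0.0612). Without mTEC replicate 2 it was called lower in mTECs, where 6.15% of tested miRNAs were. With the floor at 223 it was called lower with the same fold change (adjusted p = 0.0265), and so was miR-466h-3p (-0.80, SE 0.26, adjusted p = 0.0487), where 14.2% of tested miRNAs were called lower. On signals without normalization the sign of miR-466i-5p turned (0.15), and so did that of miR-466h-3p (0.32). These and miR-467b were the 3 members whose arrays did not overlap, against 27.8% of tested miRNAs lower in mTECs without overlap. Without mTEC replicate 2 and with the floor at 144, 26 of 31 members were lower in mTECs without overlap, where 46% of tested miRNAs were. By limma in the same arrays and at the same floor, 15 members were called lower in mTECs, miR-466i-5p and miR-466h-3p among them, where 25.9% of tested miRNAs were. At the floor of 621, with mTEC replicate 2 kept and cTEC replicate 1 left out, 15 were called lower, miR-466i-5p not among them, where 32.4% of tested miRNAs were, and the cTEC group was then 1 array. Of all members, miR-466i-5p alone was well above background on both cTEC arrays.

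**Figure D4:**
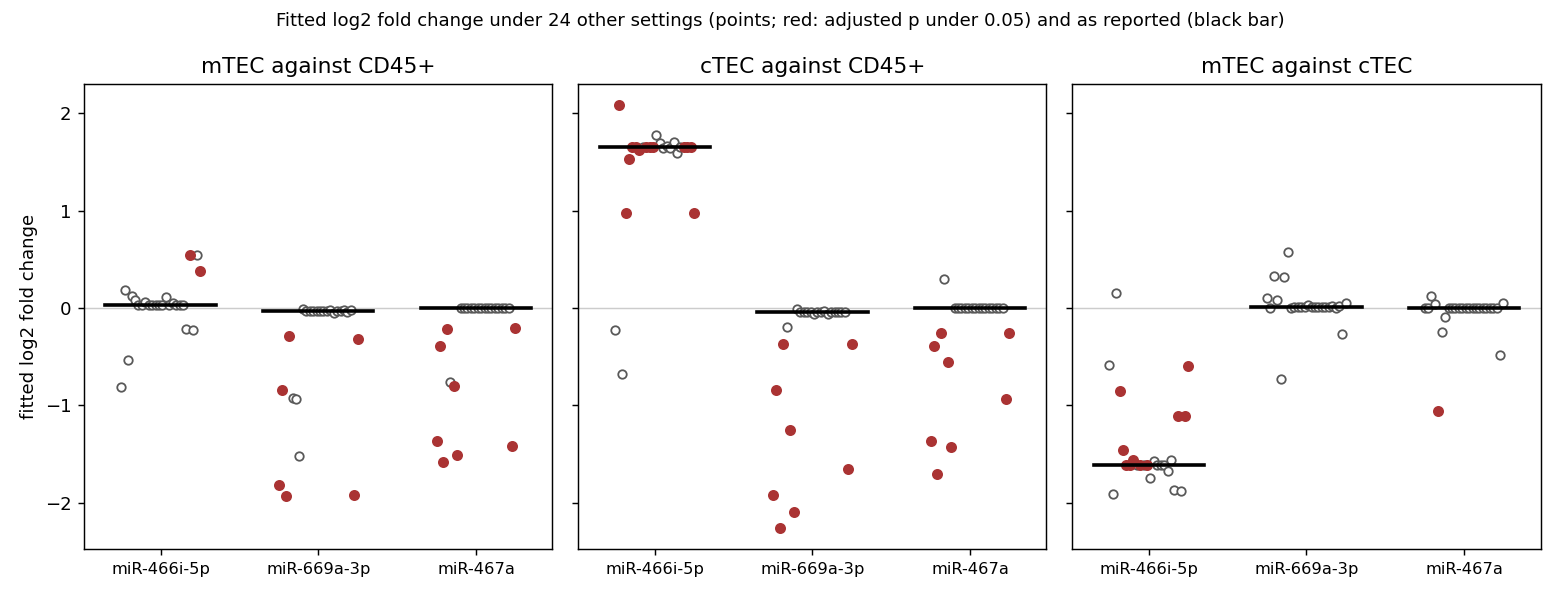
Fitted log2 fold change (y axis) of miR-466i-5p, miR-669a-3p and miR-467a in the 3 comparisons, as reported (black bar) and under 24 other settings (points, red where the adjusted p was under 0.05). miR-466i-5p lies between 0.97 and 2.08 in cTECs against CD45+ cells except for 2 points below 0, and no point of miR-669a-3p lies above 0 in either comparison with CD45+ cells.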

How the data were processed

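RNA from 3 CD45+, 2 cTEC and 3 mTEC pools was labeled with Cy3 and hybridized to 8 arrays of 1 slide. The authors deposited scanner output per array, with raw and background-subtracted spot intensity, the scanner's well-above-background flags (another column, scored 0 or 1), and a quantile-normalized table of log2 intensity with their own fold changes and p-values, which were not used. The submitters' processing notes name limma; per the file headers Feature Extraction 10.7.3.1 was used. Arrays give no read depth, and their number limits the precision.

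Processed signals of the 5 spots per probe were averaged after outlier spots had been left out, divided by the array's 75th percentile over 65 probes, floored at 621, and tested in R 4.3.3 with limma 3.58.1 (3 group means, Benjamini-Hochberg over 309 miRNAs, adjusted p under 0.05). The p-values rest on the spread between pools within groups, shared over the 3 groups. For members at the floor on most arrays the floor cut off that spread, so their p-values do not measure it. Named members were those tested, up to 25, in order of mean log2 signal with a floor at 67.0, and fold changes were given for the first 10. The families, lists, floor and rules were chosen with earlier results of these data known. Alternatives were other scalings, floors, background corrections, filters, blocks and each array left out. Leaving out mTEC replicate 2 with another floor or the deposited table was added after seeing the data. Positions in the deposited table name no build, and RefSeq positions are of GRCm38.p6.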

Additional observations from a re-analysis of the deposited data

How the results depend on the processing

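Signal over background limited what could be tested, since the floor that cTEC replicate 2 sets lies above most members. Members called, with the percent of all tested miRNAs called in parentheses, for mTEC against CD45+ (0 as reported) were 6 (35.6%) when the 75th percentile was taken over every mouse probe, 2 (27.2%) by quantile normalization, 5 (29.8%) without normalization, 4 (39.2%) in the deposited table, 1 at the floors of 223 (34.6%) and 67.0 (45.3%), 3 (34%) without mTEC replicate 2 at the floor of 144, and 8 (40.1%) without it in the deposited table, all lower but 1 of these 8. For cTEC against CD45+ (1 as reported) they were 6 (38.8%), 3 (37.5%), 6 (36.6%) and 6 (44.7%) under the first 4 of these, with 0, 1, 0 and 1 of them higher and the rest lower. They were 25 (80.6%), all higher, by normexp, 5 (49.8%) at the floor of 223, 3 of them higher, and 19 (72.5%) at 67.0, 17 of them higher. They were 20 (64.7%) without mTEC replicate 2 at the floor of 144, 18 of them higher, 7 (47.6%) without it in the deposited table, 1 of them higher, and 0 without a filter on dim probes (7.79%), with the replicate block (27.8%) or with the slide row as a block (29.8%). For mTEC against cTEC (0 as reported) they were 1 in the deposited table with (26.9%) or without (31.4%) mTEC replicate 2, 11 (64.7%) by normexp, 2 at the floors of 223 (35.3%) and 67.0 (41.7%), 1 with the median of the spots (23%), a stricter filter (33.9%) or a trend in intensity (21.7%), and 15 (47.6%) without mTEC replicate 2 at the floor of 144, all of them lower. Leaving out 1 array gave 0 to 1, 0 to 15 and 0 to 15 calls in the 3 comparisons; 1 came without mTEC replicate 2 and 15 without cTEC replicate 1. The cause of these shifts was not tested.

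In cTECs against CD45+ cells, signs turned for miR-466i-5p (-0.23 with the percentile over all mouse probes and -0.68 without normalization), miR-466c-5p (-0.47 with that percentile, -0.81 without normalization, and -0.095 in the deposited table with or without mTEC replicate 2), miR-466b-3p (-0.90, -1.23 without normalization, and -0.22 in the deposited table with or without that array, and uncalled values from -0.90 to -0.076 in 4 others), miR-669c (not called at these values, -0.17 with that percentile, -0.52 without normalization and -0.050 in the deposited table with or without that array) and miR-669n (-0.098 without normalization). Over the 10 members with fold changes, signs turned in 11, 19 and 22 of the 239 values of mTEC against CD45+, cTEC against CD45+ and mTEC against cTEC, of which 0, 6 and 0 were called. The replicate block called 0 members in each comparison. Arrays of 1 number were treated as unpaired. The correlations of their deviations were 0.24 and 0.28 between cTEC and mTEC arrays, and -0.20 to 0.04 for pairs with a CD45+ array. Members above background on every array of the CD45+, cTEC and mTEC groups (8, 1 and 10) became 15, 9 and 19 (26.3%, 15.8% and 33.3%, beside 18.6%, 12.2% and 23% of all mouse probes) with 1 spot sufficing, and 48, 49 and 55 (84.2%, 86% and 96.5%, beside 44.8%, 50.3% and 58.6%) with the scanner's weaker call of a positive and significant signal. Leaving out 1 array gave 8 to 10, 3 to 7 and 11 to 22 members.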

Other observations

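The 14 opposite (star) strands of the same families were dim on most arrays and stood out on mTEC replicate 2. Of the 14, 1, 3 and 0 were well above background in CD45+ cells, 1 and 0 in cTECs, and 0, 12 and 3 in mTECs. Their median scaled signal was 31.1, 25.4 and 32.0 in CD45+ cells, 77.3 and 348 in cTECs, and 32.1, 461 and 65.7 in mTECs. On mTEC replicate 2, 13 of 14 were higher than the mean of the other mTEC arrays by more than 1 on the log2 scale, with a median difference of 2.52. The highest mean signal was that of miR-669p*, with 117, 144 and 112 in CD45+ cells, 217 and 458 in cTECs, and 33.4, 465 and 160 in mTECs. miR-467d* had 194, 180 and 129, then 81.3 and 367, then 43.3, 514 and 63.1. None of the 5 tested was called in any of the 3 comparisons, where 23.9%, 30.7% and 22.7% of tested miRNAs were.

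Mouse probes outside the families that hold the letters TGTGTGT numbered 7, of which 6 were tested, and those with the highest signal were highest in cTECs after scaling, as miR-466i-5p was. miR-574-5p, with the sequence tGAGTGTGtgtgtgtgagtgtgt (seed in capitals), had signals of 747, 809 and 834 in CD45+ cells, 2440 and 3079 in cTECs, and 1130, 713 and 1285 in mTECs. miR-1187, with the sequence tATGTGTGtgtgtatgtgtgtaa, had 433, 431 and 496, then 1478 and 2005, then 592, 655 and 807. After scaling both were higher on the cTEC arrays than on any other array. By limma both were called higher in cTECs than in CD45+ cells, 2 of 6 tested, where 33 of 309 tested miRNAs were called higher. Both were also called lower in mTECs than in cTECs, 2 of 6 tested, where 20 of 309 were called lower. In either direction 30.7% and 22.7% of tested miRNAs were called in these comparisons. Before scaling miR-574-5p had 1369, 1598 and 1202 in CD45+ cells, 1229 and 727 in cTECs, and 2250, 520 and 1426 in mTECs, and miR-1187 had 793, 851 and 714, then 745 and 474, then 1179, 477 and 896. For both probes the cTEC arrays were thus above all others only after scaling. Without normalization 2 of 309 tested miRNAs were called higher in cTECs than in CD45+ cells and 111 lower. The part of the scaling in the difference was not tested. miR-3082-5p had 153, 161 and 167, then 426 and 902, then 203, 647 and 292, and was above background on all 8 arrays without being called. Whether the repeat itself bears on these signals was not tested.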
